A study of Mus musculus with 6 samples.

Results

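Histone deacetylases, sirtuins and the subunits of ATP-driven chromatin remodellers were followed in DR4 mouse embryonic fibroblasts. Members are the probe sets (groups of short oligonucleotides that together measure a transcript) whose single platform gene symbol begins with Hdac, Sirt or Chd and a digit, with Smarc and a letter from a to e, or with Arid1. The rule took 86 of 45137 probe sets and 43 of 18193 named genes, with 51 probe sets on the MOE430A array and 35 on the MOE430B array. It uses names only and no measured value. DR4 cells are fibroblasts of day 15 embryos that serve as feeder cells for stem cells, and were profiled as a control for the embryonic stem cell lines V6.5, R1 and J1, which are not analysed here. Replicate 1 was prepared from 12x10e6 cells with RNA at 2.4 ug/ul, whereas replicates 2 and 3 each used 3x10e6 cells with RNA at 3.0 ug/ul. All 3 grew in D-MEM with 15% serum and LIF, the cytokine that keeps stem cells undifferentiated, and the labels name no treatment. The labels state neither separate cultures nor the sex or genotype of the embryos, nor whether the cells had been growth-arrested, so spread between replicates may be technical.

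Deacetylases remove acetyl groups from histone tails and from other proteins. The Hdac enzymes need zinc, while the sirtuins consume NAD. Remodellers of the SWI/SNF, ISWI and CHD families hydrolyse ATP to slide, evict or space nucleosomes. Both activities meet in the NuRD complex, which carries the deacetylases Hdac1 and Hdac2 together with a CHD ATPase. In fibroblasts these proteins are known for restraining or opening genes of growth and differentiation, and a SWI/SNF complex is assembled around either of the ATPases Smarca2 and Smarca4.

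The promoters of these genes, 250 bases before to 50 bases after the start of transcription, were rich in CG pairs. RefSeq (GRCm38.p6) promoter entries were matched by symbol for 35 of the 43 genes, as 46 promoters. Their median was 22.5 CG pairs in 300 bases, against 7 over all 32851 promoters of the table. Those promoters belong to 27025 genes, whether or not the arrays measure them, and genes with several promoters count more than once. Promoters of genes above the array's median signal had a median of 24 (35 promoters), and those of genes not above it had a median of 20 (11 promoters). Of 3 motifs searched on both strands, whose matches may overlap and were counted apart, GGGCGG stood in 33 of 46 member promoters (71.7%, against 35.7% of all promoters). CCAAT stood in 32.6% of them, against 37.4% of all, and TATAAA in 6.52%, against 13.6%. A match describes the letters of this window and no more. The 5 promoters printed here in lower case, with each CG pair in capitals, show the range among related genes, and all lie on the minus strand of their chromosomes. Hdac4 (chr1:92180292-92180591) and Hdac9 (chr12:34917046-34917345, the one of its entries with fewest CG pairs) are both class IIa deacetylases, and only Hdac4 was above the array's median.
Hdac4: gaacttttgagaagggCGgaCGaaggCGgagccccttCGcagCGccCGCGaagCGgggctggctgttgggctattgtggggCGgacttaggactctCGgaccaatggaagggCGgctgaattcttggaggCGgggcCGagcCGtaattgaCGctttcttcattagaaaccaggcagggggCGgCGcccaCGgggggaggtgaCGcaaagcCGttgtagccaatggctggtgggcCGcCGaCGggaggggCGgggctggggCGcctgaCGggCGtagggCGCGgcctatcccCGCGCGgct
Hdac9: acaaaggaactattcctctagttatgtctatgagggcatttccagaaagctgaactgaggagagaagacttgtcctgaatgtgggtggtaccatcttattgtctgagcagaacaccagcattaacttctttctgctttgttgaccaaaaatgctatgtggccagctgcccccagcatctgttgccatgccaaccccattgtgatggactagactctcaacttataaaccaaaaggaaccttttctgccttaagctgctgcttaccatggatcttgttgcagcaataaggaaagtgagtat
The Hdac9 promoter had 0 CG pairs and 1 TATAAA match, and the Hdac4 promoter had 32 CG pairs and 5 GGGCGG matches. Smarca5 (chr8:80739410-80739709) and Smarca1 (chrX:47892564-47892863) encode the alternative ATPases of ISWI remodellers, and only Smarca5 was above the median.
Smarca5: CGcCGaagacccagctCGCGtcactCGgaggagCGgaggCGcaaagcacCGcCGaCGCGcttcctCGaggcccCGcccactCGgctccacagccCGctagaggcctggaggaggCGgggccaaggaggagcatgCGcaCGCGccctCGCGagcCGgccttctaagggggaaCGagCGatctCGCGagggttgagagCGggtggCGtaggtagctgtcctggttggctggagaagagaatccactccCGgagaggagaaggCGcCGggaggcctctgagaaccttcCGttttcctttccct
Smarca1: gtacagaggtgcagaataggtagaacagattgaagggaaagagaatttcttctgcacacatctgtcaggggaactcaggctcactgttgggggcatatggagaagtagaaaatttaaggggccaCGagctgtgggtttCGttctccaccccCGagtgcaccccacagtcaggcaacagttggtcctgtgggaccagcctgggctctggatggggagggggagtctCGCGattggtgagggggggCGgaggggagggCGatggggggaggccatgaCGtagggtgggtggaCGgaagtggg
The Smarca5 promoter had 32 CG pairs and the Smarca1 promoter had 9. Sirt1 (chr10:63338986-63339285) had the most CG pairs of the promoters printed: its promoter had 47 CG pairs and a GC content of 79%, yet its probe set lay under the median on all 3 arrays.
Sirt1: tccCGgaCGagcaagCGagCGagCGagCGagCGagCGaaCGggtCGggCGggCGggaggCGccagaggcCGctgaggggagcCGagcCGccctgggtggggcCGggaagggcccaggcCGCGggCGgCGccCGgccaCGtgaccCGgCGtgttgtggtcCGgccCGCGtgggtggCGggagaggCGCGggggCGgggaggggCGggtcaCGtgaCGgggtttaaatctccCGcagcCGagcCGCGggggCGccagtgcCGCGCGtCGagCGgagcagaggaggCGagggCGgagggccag

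Signals are MAS5 intensities on a linear scale, and each array type had been scaled apart, so levels of the 2 types are not on a common scale and no comparison rests on both. Probe sets also differ in how well they hybridize, so signals of different genes do not rank their transcripts. Each array's own median signal served as the floor (685 to 734 on MOE430A and 849 to 917 on MOE430B). In RNA of a whole culture, fewer cells with a transcript and less transcript per cell cannot be told apart. Fibroblast markers checked the label: 12 of 12 lay above the floor on all 3 arrays, and 0 of 8 pluripotency markers did. Among markers of other cell types, Csf1r and Lyz2 of 5 measured for macrophages, Kdr of 5 for endothelium, Epcam and Krt8 of 4 for epithelium, Des and Ckm of 6 for skeletal muscle and Stmn2 of 5 for neurons were above it. The Epcam signal is of a probe set whose kind may match transcripts of more than 1 gene.

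Most deacetylase and remodeller genes had a signal above the floor in these fibroblasts. By any probe set above the floor on all 3 arrays of its type, 33 of 43 genes qualified (76.7%, against 54.7% of all 18193 genes). Genes with more probe sets have more chances to qualify. Among those with 1 probe set, 11 of 17 members qualified, which is 64.7% against 38.2% of all such genes. With 2 probe sets it was 10 of 13 (76.9% against 63%), and with 3 or more it was 12 of 13 (92.3% against 80.5%). By probe sets, 31 of 51 were above on MOE430A (60.8%, against 42.4% of the array) and 14 were under on all 3 arrays (27.5%, against 42.5%). On MOE430B 15 of 35 were above, a share of 42.9% that lies near the 37.2% of that array, and 9 were under (25.7% against 37.2%). The highest tryptophan control, a bacterial sequence with no mouse target that may or may not have been added to the samples, lay between 614 and 786 on MOE430A and between 1989 and 2348 on MOE430B. Above that control on all 3 arrays were 30 MOE430A members (58.8% against 41.5%) and 13 MOE430B members (37.1% against 16.2%). By genes, 32 of 43 passed the control, and the gene lost was Smarcd3. The share of all genes that passed it was not computed.

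**Figure D1:**
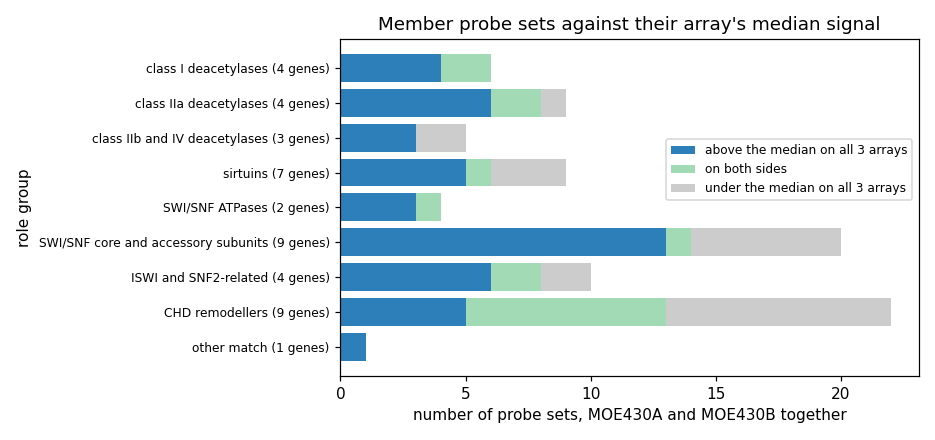
Number of member probe sets (horizontal axis) in each role group that lay above their array's median on all 3 arrays, on both sides of it, or under it on all 3 arrays, both array types counted together. SWI/SNF core and accessory subunits had 13 of 20 probe sets above, and CHD remodellers had 5 of 22.

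Class I deacetylases, the nuclear enzymes of the large corepressor complexes, had 3 of 4 genes above the floor, beside 54.7% of all genes. Hdac1, a catalytic subunit of the Sin3, NuRD and CoREST complexes, had signals of 4089, 5036 and 4039 in replicates 1, 2 and 3 (mean 4388 ± 561, SD, n = 3). RefSeq lists the pseudogene Hdac1-ps, and whether the probe set also detects it was not tested. Hdac2, the close relative that sits in the same complexes, had 3 probe sets. Its MOE430B probe set 1445684_s_at, of a kind that may match transcripts of more than 1 gene, read 13021, 13919 and 10852. The MOE430A probe set 1449080_at read 1419 in replicate 1 and 888 and 820 in replicates 2 and 3, so replicate 1 was apart from the others there. A further MOE430B probe set, 1439704_at, read 1105, 1313 and 825 and was under the floor in replicate 3. Hdac3, the catalytic subunit of the NCoR complexes, read 3197, 3097 and 2485 (mean 2926 ± 386, SD, n = 3). Its only probe set, 1426437_s_at, is also of a kind that may match transcripts of more than 1 gene. Hdac8, which acts outside these complexes and deacetylates the cohesin ring, read 1556, 671 and 1296 on MOE430B. It was under the floor in replicate 2 and above it in the others.

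Class IIa deacetylases shuttle between nucleus and cytoplasm and bind MEF2 transcription factors. They also had 3 of 4 genes above the floor, beside 54.7% of all genes. Hdac5, a signal-dependent brake on MEF2 in muscle, read 2041, 2821 and 3132 on MOE430A and 9207, 8785 and 11481 on MOE430B. Hdac7, known for its part in blood vessels and thymocytes, read 4431, 4361 and 4981 (mean 4591 ± 340, SD, n = 3) by 1420813_at. Hdac4, a regulator of cartilage growth, read 3354, 3587 and 3729 by 1454693_at (mean 3557 ± 190, SD, n = 3). Each of these 3 genes was above the floor in every replicate by these probe sets. The other Hdac4 probe sets were less even: 1436758_at read 1905, 1380 and 2254, and 1447566_at read 2066, 3316 and 800, under the floor in replicate 3. Hdac9, the remaining class IIa gene, was not above the floor on either array type. It read 59.7, 65.8 and 563 on MOE430A, with replicate 3 far above the others, and 1082, 698 and 95 on MOE430B, with replicate 3 far below them. The Hdac9 probe sets therefore put the replicates in opposite order.

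All 3 genes of classes IIb and IV were above the floor, beside 54.7% of all genes. Hdac6, the cytoplasmic deacetylase of tubulin, read 867 in replicate 1 and 1381 and 1707 in replicates 2 and 3. Hdac10, which deacetylates polyamines, read 3901, 4061 and 4994 by 1454775_at (mean 4319 ± 591, SD, n = 3), but its other probe set, 1441832_at, read 165, 322 and 193. Hdac11, the lone class IV enzyme, which removes fatty acyl groups, read 1618, 2413 and 2153 by 1454803_a_at and 215, 550 and 382 by 1451229_at. Both genes thus rest on the first of their probe sets for being above the floor.

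Of the sirtuins 4 of 7 genes were above the floor, beside 54.7% of all genes. All but Sirt5 have 1 probe set, and 38.2% of all such genes qualified. Sirt6, a chromatin-bound enzyme of DNA repair and telomere upkeep, read 8944, 5233 and 7595 on MOE430B (mean 7257 ± 1879, SD, n = 3). Sirt5, a mitochondrial enzyme that removes succinyl and malonyl groups, read 6129, 5274 and 4957 by 1428916_s_at. Its probe set 1428915_at read 1381, 1239 and 1349, above the floor and under the tryptophan control, and 1432105_at read 38.1, 238 and 181, under both. The cytoplasmic tubulin deacetylase Sirt2 read 1628, 2176 and 2469 (mean 2091 ± 427, SD, n = 3). Sirt7, which works in the nucleolus, read 1276, 1625 and 1515 (mean 1472 ± 179, SD, n = 3). The genes not above the floor have 1 probe set each, all on MOE430A. Sirt1, the nuclear enzyme that acts on p53 and histones, read 353, 265 and 240, and the mitochondrial deacetylase Sirt3 read 300, 284 and 463, both under the floor on every array. Sirt4, a further mitochondrial sirtuin, read 584, 904 and 654 and was above the floor in replicate 2 alone.

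All SWI/SNF genes that the rule takes were above the floor: both ATPases and 9 of 9 core and accessory genes. Beside them stand 54.7% of all genes, 63% of those with 2 probe sets and 80.5% of those with 3 or more. By probe sets it was 3 of 4 for the ATPases and 13 of 20 for the others. Above the tryptophan control were 8 of the 9 core and accessory genes, a count with no share over all genes beside it. Smarca4, the ATPase known as BRG1, read 5953, 5611 and 6256 by 1426804_at (mean 5940 ± 323, SD, n = 3) and 2156, 1628 and 2866 by 1426805_at. Smarca2, the alternative ATPase known as BRM, read 884, 937 and 1322 by 1430526_a_at. Its other probe set, 1452333_at, read 753, 681 and 1257 and was just under the floor in replicate 2. Both Smarca2 probe sets lay within 2-fold of the floor, and all 4 ATPase probe sets had their highest signal in replicate 3.

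Among the core subunits, the paired scaffold proteins Smarcc1 and Smarcc2 were above the floor. Smarcc2 read 11589, 10474 and 13509 on MOE430B (mean 11857 ± 1535, SD, n = 3). Smarcc1 read 9851, 8155 and 8665 by 1455246_at on MOE430B and 2232, 2079 and 2664 by 1423416_at on MOE430A. The remaining Smarcc1 probe sets were not above the floor on all 3 arrays, with 593, 683 and 987 by 1423417_at and 232, 67.5 and 152 by 1459824_at. Smarcb1, the core subunit lost in rhabdoid tumours, read 4319, 4034 and 3173 by 1416045_a_at (mean 3842 ± 597, SD, n = 3). Its other probe sets were under the floor on every array, with 302, 42.1 and 527 by 1435856_x_at and 178, 220 and 187 by 1456938_at. Smarce1, an HMG-box subunit, read 2592, 2374 and 2691 by 1422676_at and 1896, 2255 and 2701 by 1422675_at, while 1430822_at read 348, 396 and 316. RefSeq lists the pseudogene Smarce1-ps1, so the source of the Smarce1 signal is uncertain to that extent.

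The Smarcd genes encode alternative subunits that link the complex to transcription factors. Smarcd2 read 2967, 2913 and 2839 by 1448401_at (mean 2906 ± 64.3, SD, n = 3), the most even of the 31 MOE430A members above the floor. Its probe sets 1448400_a_at and 1426192_at read 1676, 2259 and 1532, and 589, 405 and 692, so 1 of the 3 was under the floor. Smarcd1 read 1452, 1087 and 1675 by 1448913_at and 302, 90.4 and 212 by 1420240_at. Smarcd3, the heart and muscle form, read 828, 696 and 1593, and its replicate 2 value stood 1.59% above that array's median. The DNA-binding subunit Arid1a, often mutated in cancer, read 1694, 1999 and 2828 by 1448709_at and 1624, 1924 and 2086 by 1417440_at. Arid1b, which takes its place in other complexes, read 2397, 2421 and 3194 on MOE430B (mean 2670 ± 453, SD, n = 3). Both Arid1a probe sets and that of Arid1b read lowest in replicate 1 and highest in replicate 3.

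Of the ISWI and SNF2-related genes, 3 of 4 were above the floor, beside 54.7% of all genes. Smarca5, the ISWI ATPase that spaces nucleosomes, read 3799 in replicate 1 and 2316 and 2433 in replicates 2 and 3 by 1424206_at. Its probe set 1424205_at read 1356, 1318 and 1545, with no such gap, and 1424207_at read 984, 1065 and 579, under the floor in replicate 3. The MOE430B probe set 1440048_at read 943, 552 and 534, again with replicate 1 the highest. RefSeq lists Smarca5-ps, a transcribed pseudogene, and its share of these signals was not tested. Smarca1, the ISWI ATPase best known from brain, read 214, 623 and 418 and was under the floor on every array. Smarcad1, which helps restore silent chromatin after replication, read 1705, 2271 and 1365 by 1435651_a_at and 1558, 1316 and 1518 by 1452276_at. Smarcal1, an annealing helicase of stalled replication forks, read 3153, 2942 and 3715 on MOE430B by 1455139_at. On MOE430A it read 1323, 1074 and 1758 by 1416620_at and 86.2, 45.7 and 69.6 by 1439142_at.

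The CHD family had 5 of 22 probe sets above the floor, beside 42.4% of MOE430A and 37.2% of MOE430B probe sets as a whole. By genes it was 5 of 9, beside 54.7% of all genes. Most CHD genes have more than 1 probe set, and of all genes with 2 probe sets 63% qualified, or 80.5% with 3 or more. Chd3, a NuRD ATPase, read 10510, 11365 and 11716 on MOE430B (mean 11197 ± 620, SD, n = 3). Chd4, its relative in NuRD, read 1627, 1968 and 2662 by 1451295_a_at and 626, 728 and 1111 by 1436343_at, lowest in replicate 1 and highest in replicate 3 by both. The third Chd4 probe set, 1438476_a_at, read 47.2, 116 and 385. Chd2, linked to epilepsy in humans, read 4081, 4426 and 5012 by 1428691_at (mean 4506 ± 471, SD, n = 3) and 419, 689 and 1042 by 1445843_at. Chd9 read 3634, 3637 and 3075 by 1457672_at, but 1416, 408 and 1723 by 1441339_at and 881, 145 and 144 by 1458078_at. Chd8, which binds beta-catenin, read 2099, 2566 and 2727 on MOE430A (mean 2464 ± 326, SD, n = 3). None of the 3 Chd8 probe sets on MOE430B was above the floor on all arrays, and 1457580_at among them read 238, 182 and 1161.

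Chd1, Chd5, Chd6 and Chd7 were not above the floor by any probe set. Chd1, which reads methylated histone H3 in active genes, had 4 probe sets, and the nearest to the floor, 1420990_at, read 468, 458 and 853. Chd5, the NuRD ATPase of neurons and testis, read 892, 2768 and 650 on MOE430B, a value above the tryptophan control in replicate 2 alone. Chd6 read 317, 549 and 569 on MOE430A and 700, 557 and 684 on MOE430B. Chd7, whose mutation causes CHARGE syndrome in humans, read 30.7, 38.7 and 58.1 on MOE430A and 135, 199 and 160 on MOE430B. The Chd7 probe sets reached at most 7.92% of the floor on MOE430A and at most 21.7% of it on MOE430B. Chd1l, which the rule also takes and which is a remodeller stimulated by poly(ADP-ribose), read 846, 937 and 1070.

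**Figure D2:**
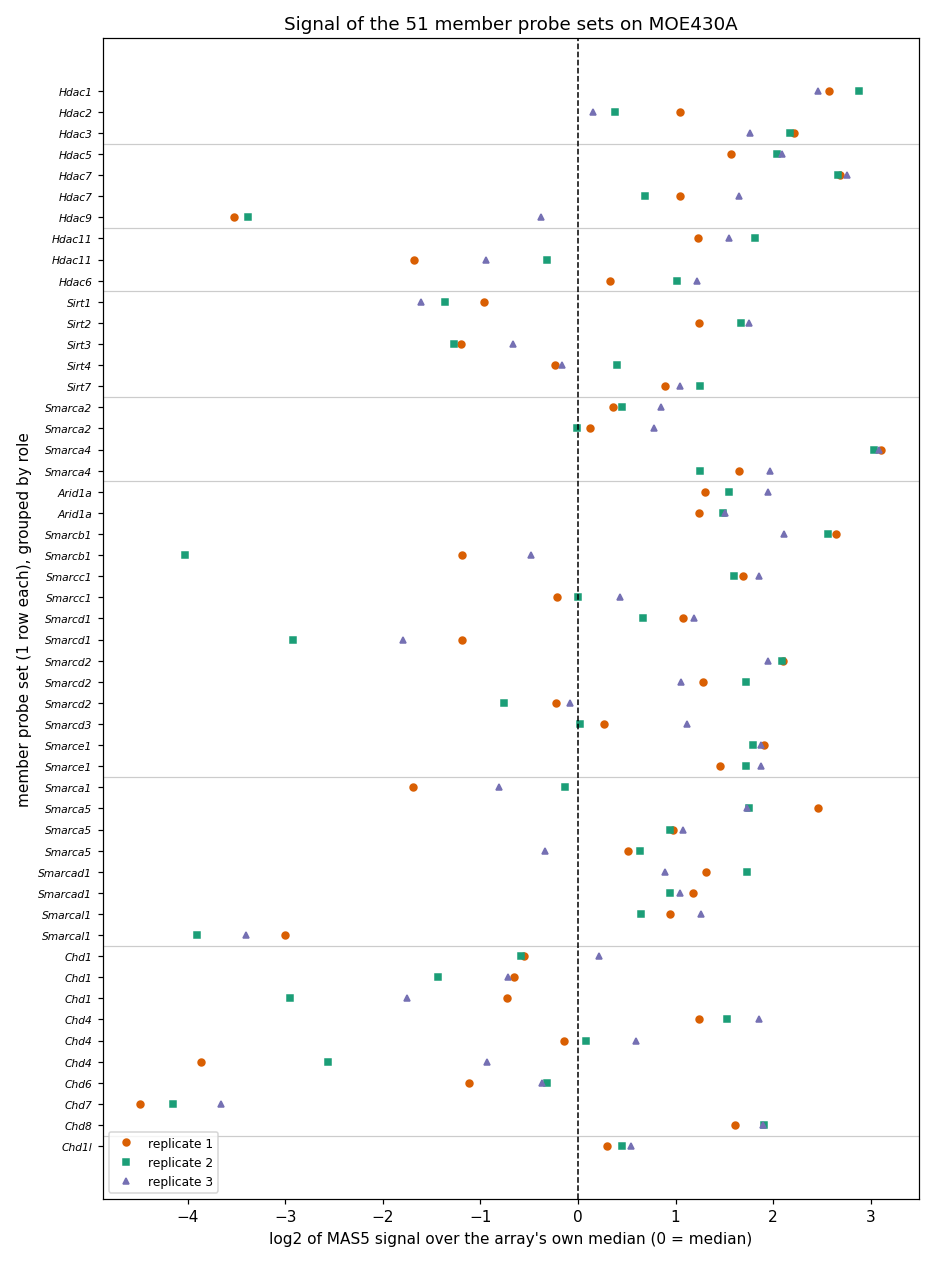
Signal of each of the 51 MOE430A member probe sets, 1 row each and grouped by role, as log2 of the signal over the array's own median (dashed line at 0), with a circle, square and triangle for replicates 1, 2 and 3. Hdac1, Smarca4 and Smarcb1 each have a row well right of the line, and the Chd7 row lies furthest left.

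**Figure D3:**
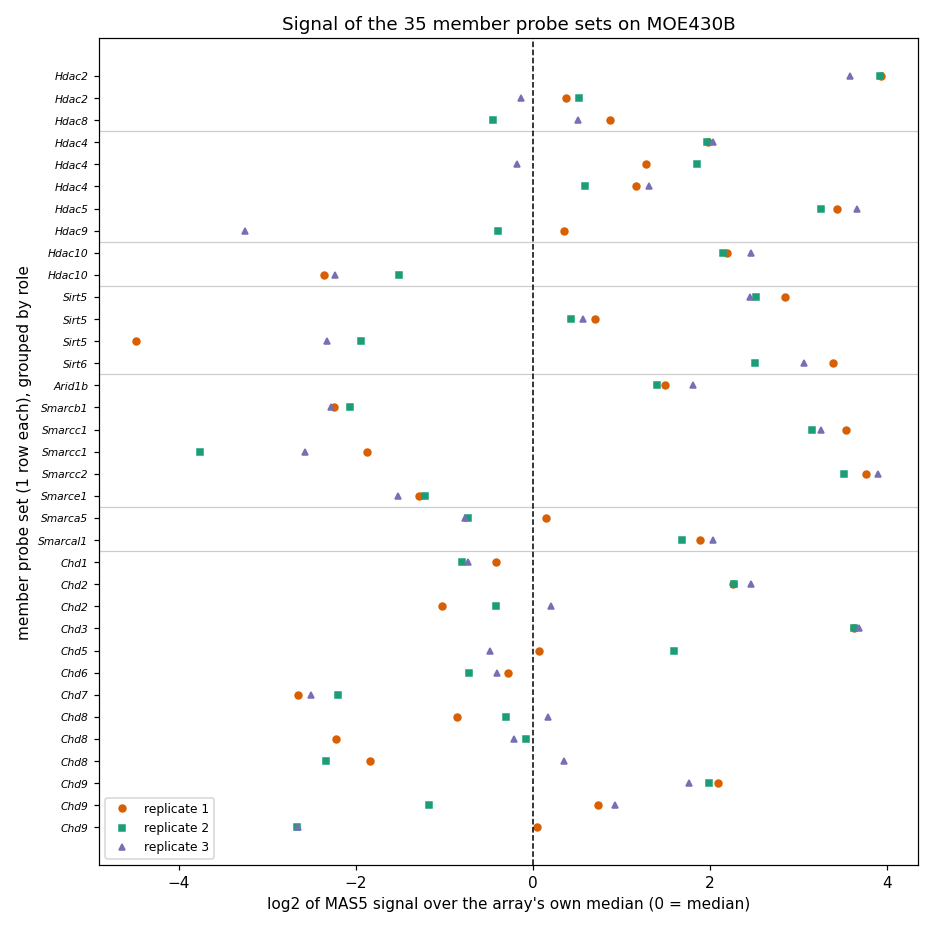
The same plot for the 35 MOE430B member probe sets, with the same symbols and log2 axis. Hdac2, Smarcc2 and Chd3 each have a row far right of the line, and the replicates of Hdac9 and of the lower Chd9 rows are spread widely.

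The choice of probe set decided the answer for many member genes. Of 26 genes with more than 1 probe set, 17 had some above the floor on all 3 arrays and others not, 5 had all above and 4 had none above. Had the first probe set of each gene in the tables been used alone, 27 of 43 genes would have been above the floor, in place of 33. Neither count was made over all genes, so whether members differ from other genes in this was not tested. The annotation holds no probe positions, so whether the low probe sets lie in introns or alternative ends was not tested. A direct check of the arrays was given by the Hdac5 probe set 1415743_at, 1 of 100 printed on both types. Its deviations from its own mean were -0.36, 0.10 and 0.25 on the log2 scale on MOE430A and -0.08, -0.15 and 0.23 on MOE430B in replicates 1, 2 and 3. Replicate 3 was the highest on both types, and replicates 1 and 2 were in opposite order. The MOE430B signal of this probe set was 4.51, 3.11 and 3.67 times its MOE430A signal, while the median over the 100 probe sets was 4.15, 3.46 and 3.79.

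The spread between replicates sets the error of each of these levels. Among members above the floor on all 3 arrays, the median SD on the log2(signal + 16) scale was 0.29 on MOE430A (31 probe sets, against 0.24 over 9600) and 0.17 on MOE430B (15, against 0.28 over 8384). Without replicate 1 the medians of members and array were close, at 0.183 against 0.183 on MOE430A and 0.210 against 0.215 on MOE430B. Without replicate 3 they were 0.192 against 0.186 on MOE430A, also close, and 0.080 against 0.227 on MOE430B. Without replicate 2 they were 0.265 against 0.210 and 0.170 against 0.239. In linear terms the median coefficient of variation was 19.7% for MOE430A members, against 16.5% over the array, and 12.2% for MOE430B members, against 19.4%. The widest on MOE430A were Smarcd3 (0.62), Hdac7 by 1420812_at (0.53), Hdac6 (0.49), Hdac2 (0.42) and Smarca4 by 1426805_at (0.40). For Hdac7 that probe set read 1418, 1107 and 2305, with replicate 3 above the others, while 1420813_at had an SD of 0.10. The widest on MOE430B were Sirt6 (0.40), Hdac4 by 1436758_at (0.36), Arid1b (0.23), Hdac5 (0.21) and Hdac10 (0.19). The highest signal was at least 2 times the lowest in 2 of 31 MOE430A members (6.45%, against 7.57%) and in 0 of 15 MOE430B members (0%, against 13.3%).

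Replicate 1 differed from replicates 2 and 3 in cell number and RNA concentration, which is the one contrast the labels give. No member was called in it. By limma with Benjamini-Hochberg adjustment over all probe sets tested, 0 of 35 MOE430A members passed an adjusted p of 0.05, against 78 of 11066 probe sets (0.705%). On MOE430B 0 of 20 members passed, against 0 of 10594 (0%). At an unadjusted p under 0.05, 1 MOE430A member passed (2.86%, against 8.13% of probe sets) and 0 MOE430B members did (0%, against 7.24%). A single array stood on 1 side of this fit, which left 1 residual degree of freedom and took replicate 1 to vary as the others do.

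The members with the smallest p on MOE430A pointed both ways. The single member past the unadjusted level was Hdac6, with a difference of -0.81 ± 0.37 (SE, log2 scale, replicate 1 minus the mean of 2 and 3; limma adjusted p = 0.549). Hdac2 by 1449080_at was at +0.72 (limma adjusted p = 0.642) and Smarca5 by 1424206_at at +0.67 (limma adjusted p = 0.683). Hdac5 was at -0.54 (limma adjusted p = 0.796) and Sirt2 at -0.51 (limma adjusted p = 0.824). Replicates 1 and 2 shared a scan day and fluidics station on MOE430A, and between them alone the differences were -0.66 for Hdac6, 0.67 for Hdac2, 0.71 for Smarca5, -0.46 for Hdac5 and -0.42 for Sirt2. That pair is part of the contrast itself, so its sign is no separate check of the batch. For Hdac2 the same contrast gave 0.08 by each of its MOE430B probe sets, and for Hdac5 it gave -0.13 on MOE430B.

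On MOE430B the smallest p belonged to Hdac8 (+0.73, limma adjusted p = 0.847), Sirt6 (+0.50, limma adjusted p = 0.857), Chd9 by 1441339_at (+0.74, limma adjusted p = 0.903), Sirt5 by 1428916_s_at (+0.26, limma adjusted p = 0.915) and Chd5 (-0.58, limma adjusted p = 0.922). Replicate 2 decided the direction for both CHD genes: without it the difference was -0.28 for Chd9 and +0.45 for Chd5. Hdac8 and Sirt6 moved in size: Hdac8 was at +0.26 without replicate 2 and +1.20 without replicate 3, and Sirt6 at +0.24 and +0.77. Without replicate 3, Chd9 was at +1.76 and Chd5 at -1.62. No replicate shared the fluidics station of replicate 1 on MOE430B, although all 3 arrays were scanned on 1 day, and the station cannot be told apart from replicate 1 on that type.

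**Figure D4:**
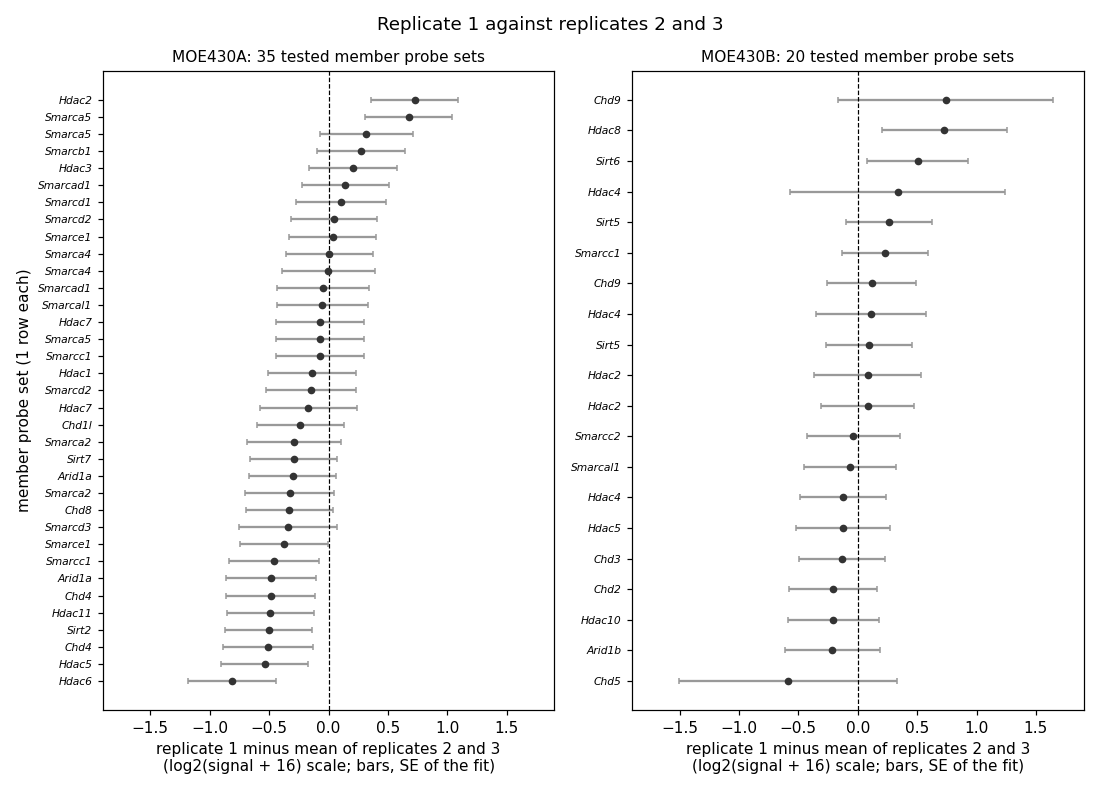
Difference between replicate 1 and the mean of replicates 2 and 3 on the log2(signal + 16) scale (horizontal axis) for the 35 tested MOE430A and 20 tested MOE430B member probe sets, with bars of 1 SE from limma. Hdac6 at -0.81 and Hdac2 at 0.72 are the extremes on MOE430A, where 25 of 35 points lie below 0.

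In direction, 25 of 35 tested MOE430A members were lower in replicate 1 than in the mean of replicates 2 and 3 (71.4%, against 51.1% of tested probe sets), and 9 of 20 were on MOE430B (45%, against 47.4%). The MOE430B count was 18 of 35 with no filter, 8 of 13 with a filter at the 75th percentile and 9 of 15 with the brightest probe set per gene, so it lay on either side of an even split. The MOE430A share rested on replicate 3: replicate 1 was lower than replicate 3 in 25 of 35 members (against 51.9% of probe sets) and lower than replicate 2 in 18 of 35 (against 50.6%).

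Replicate 3 held the highest signal of most MOE430A members, a pattern noticed after the values were seen. It was the highest replicate in 23 of 35 tested members (65.7%, against 36.3% of tested probe sets), and replicates 1 and 2 were the highest in 6 each (17.1%, against 33.2% and 30.6%). The median ratio of replicate 3 to the mean of replicates 1 and 2 was 1.18 over these 35. The filter uses the mean of all 3 replicates, so a member may be tested only because replicate 3 is high. Smarcc1 by 1423417_at (593, 683 and 987) was above the floor in replicate 3 alone. Among members above the floor on all 3 arrays, replicate 3 was the highest in 20 of 31 (64.5%, against 35.8%). The counts by role are over tested members. The SWI/SNF ATPases had their highest signal in replicate 3 in 4 of 4 probe sets, the core and accessory subunits in 8 of 11, CHD remodellers in 3 of 3 and class IIa deacetylases in 3 of 3. Class I deacetylases did in 0 of 3, and ISWI and SNF2-related genes in 2 of 6. On MOE430B replicate 3 was the highest in 10 of 20 members (50%, against 32%), with a median ratio of 1.07. Of MOE430B members above the floor on all 3 arrays, it was the highest in 9 of 15 (60%, against 31.8%). By role on MOE430B, replicate 3 was the highest in 3 of 4 class IIa, 2 of 3 core and accessory and 3 of 5 CHD probe sets. It was also the highest in 1 of 1 for classes IIb and IV and in 1 of 1 for ISWI and SNF2-related genes. Class I deacetylases on MOE430B, which are probe sets of Hdac2 and Hdac8, had their highest signal in replicate 3 in 0 of 3. Sirtuins were highest in replicate 1 in 3 of 3 MOE430B probe sets, of Sirt5 and Sirt6 (35.7% of tested probe sets were), and in 0 of 2 on MOE430A. Members are not independent, since 35 probe sets stand for 24 genes on MOE430A and several subunits share complexes.

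Some other properties of the arrays set replicate 3 apart, and others did not. On MOE430A it was scanned on another day and fluidics station than replicates 1 and 2, so these cannot be told apart from the replicate. On MOE430B replicates 3 and 2 shared both, and replicate 3 was higher than replicate 2 in 14 of 20 members (70%, against 48.7% of probe sets). The ratio of the 3' to the 5' Gapdh control, a measure of RNA integrity, was 0.85 in replicate 3, against 1.27 and 1.16 in replicates 1 and 2 on MOE430A, and 0.80, against 1.32 and 1.24, on MOE430B. The corresponding beta-actin ratio of replicate 3 lay between those of the others. It was 1.09, against 1.05 and 1.17, on MOE430A and 1.10, against 1.02 and 1.33, on MOE430B. The summed signal of the 12 fibroblast markers was 813259 in replicate 3, against 647064 and 743962 in replicates 1 and 2. That sum rests mostly on the brightest genes, and the markers did not move together. Col1a1 read 80483, 107005 and 133057 in replicates 1, 2 and 3, whereas Thy1 read 38911, 35603 and 16217. Postn read 7529, 16174 and 5214. Epcam, an epithelial surface protein, read 43842 in replicate 3, against 17127 and 36210, by 1 of its 2 probe sets. That MOE430B probe set is of a kind that may match transcripts of more than 1 gene, so the source of this signal is uncertain. The 3 other epithelial markers summed to 1724 in replicate 3 on MOE430A, against 2608 and 2544. Cdh1 and Krt18 among them were not above the floor. Sums of other marker lists on MOE430A went both ways, with few of their genes above the floor. Macrophage markers summed to 4878 in replicate 3, against 5650 and 5584, and endothelial markers to 2421, against 1975 and 2211. The part of any of these in the members' values was not tested.

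**Figure D5:**
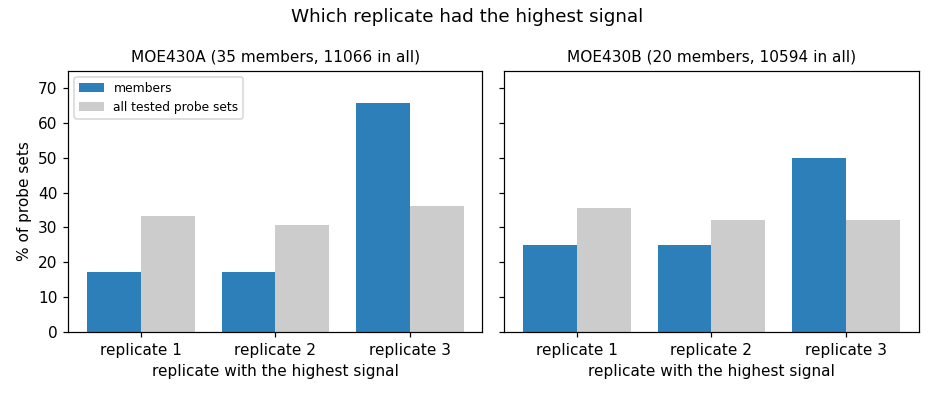
Share of tested probe sets (vertical axis, percent) whose highest signal fell in replicate 1, 2 or 3, for members beside all tested probe sets, with MOE430A left and MOE430B right. Replicate 3 holds 65.7% of MOE430A members, against 36.3% of all, and 50% of MOE430B members, against 32%.

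Genes that work with the members were read from lists of partners. Of the NuRD partners 10 of 10 were above the floor, among them the histone chaperones Rbbp7 (8517 ± 1604, SD, n = 3) and Rbbp4 (8268 ± 1641) and Cdk2ap1 (9379 ± 935) on MOE430A. Of the Sin3, CoREST and NCoR genes, 11 of 13 measured were above, including the demethylase Kdm1a (3453 ± 327), and Ing2 (225 ± 134) and Rcor2 (725 ± 98.7) were not. Further SWI/SNF subunits were above the floor in 14 of 20 cases, with Brd9 at 7547 ± 532 on MOE430B and Ss18 at 5992 ± 1182 and Dpf2 at 4143 ± 301 on MOE430A. Under or across the floor were the neuron-type subunits Actl6b (530 ± 222) and Dpf1 (253 ± 192), and also Dpf3, Bcl11a, Bicra and the general subunit Actl6a (891 ± 302). Actl6a read 1167, 937 and 569, so it was under the floor in replicate 3 alone.

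Enzymes that oppose the deacetylases were also measured, and 8 of 10 acetyltransferase genes were above the floor. Crebbp and Ep300, the paired coactivators, were at 7814 ± 1686 and 4931 ± 2135 on MOE430B (SD, n = 3), and Kat6b and Hat1 were not above it. Of the class IIa partners, 6 of 8 were above, with the anchoring proteins Ywhae (27372 ± 3412) and Ywhab (19180 ± 3019) on MOE430A and the transcription factor Mef2d (5005 ± 595) on MOE430B. Mef2c (493 ± 69.1) and Mef2b (206 ± 148) were not. ISWI partners were above in 7 of 9 cases, including Baz1b (3885 ± 962) on MOE430A. Of the genes listed for NAD metabolism, which are not all genes of its supply, 3 of 7 were above (42.9%): Nampt, Nmnat2 and Parp1. Nmnat1, Nmnat3, Naprt and Nnmt were not. Nampt, the rate-limiting enzyme of NAD salvage, read 3429, 3340 and 2571 on MOE430B. Each of these counts stands beside the 54.7% of all genes above the floor. That share was 38.2% for genes with 1 probe set, 63% with 2 and 80.5% with 3 or more. Many of the listed partners have several probe sets, so 54.7% is a low baseline for them.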

How the data were processed

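Biotin-labelled total RNA of 3 replicates was read on 2 Affymetrix array types, MOE430A and MOE430B, per the labels. As deposited, a probe set has 1 linear intensity per array, computed with MAS5 per the submitters' processing notes, without version or settings. Each array had a trimmed mean signal (leaving out 2% at either end) between 1500.2 and 1500.6, so the arrays had been scaled to a common target, each type apart. Control probe sets (64 per array) were counted in the median and left out of all tests.

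Names came from the platform annotation, updated through the gene identifier against RefSeq, and all 86 members matched. The floor was each array's median signal, and a gene counted as above it when at least 1 probe set exceeded it in all 3 replicates of an array type. Replicate 1 was compared with replicates 2 and 3 with lmFit and eBayes of limma 3.58.1, in R 4.3.3. The fit used log2(signal + 16) and kept a probe set when its mean log2 signal exceeded the mean of the 3 log2 medians, and p-values were adjusted by Benjamini-Hochberg over each table. Differences on this scale understate changes of dim probe sets. Precision is limited by having 3 arrays per type. Scan day and fluidics station came from instrument records.

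The members, lists and tests were chosen with earlier results of these data known. Values are named, per role group, for up to 6 genes above the floor and up to 4 not above it, for the 5 smallest p-values and the 5 widest spreads per array type, and for up to 8 genes with probe sets on both sides of the floor. Values outside this rule (Arid1a, Smarcd1 and some further probe sets of named genes) account for further members and were picked with their values known. Alternatives changed the floor, the pseudocount, the filter, the scaling, the prior, the replicates and the probe set per gene.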

Additional observations from a re-analysis of the deposited data

How the results depend on the processing

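No paired analysis was possible because the contrast is between replicates of 1 array type, where each replicate number occurs once, and the array types form no contrast (100 probe sets are on both, used only to describe Hdac5). Over 25 results and their alternatives, 158 of 175 values kept their direction, or stayed within 1.5 times for counts and within the set limits for other values. The differences among them may still change in size. Some of these values could not have differed, since the filter and the intensity trend leave a replicate 1 difference unchanged. On MOE430A the pair of replicates 1 and 2 gives the same value as leaving out replicate 3. The tally therefore overstates how far the results were tried. The 75th percentile as floor left 12 of 51 MOE430A members above it (23.5%, against 20.7%), a smaller gap than with the median floor. On MOE430B it left 13 of 35 (37.1%, against 17.7%). A fixed signal of 200 passed 44 of 51 MOE430A members (86.3%, against 68%). It raised the MOE430B count to 26 of 35 (74.3%, against 70%). Member genes above the floor numbered 22 and 41 under those floors, 32 with the tryptophan control and 33 to 34 without 1 replicate. The shares of all genes under these settings were not computed, so whether the member counts exceed them is not known. For replicate 1 on MOE430A, limma called 0 probe sets of the array with no filter, 0 after quantile normalization and 164 with an intensity trend, against 78, and on MOE430B it called 8 with the 75th-percentile filter, against 0, with 0 members among them each time. The cause of these shifts was not tested. The median SD (log2 scale) with no filter was 0.36 over MOE430A, 0.49 over MOE430B and 0.26 for MOE430B members. Leaving out 1 replicate moved it between 0.18 and 0.26 for MOE430A members (0.18 without replicate 1, 0.19 without replicate 3) and between 0.080 (without replicate 3) and 0.21 for MOE430B members, while over all probe sets it stayed between 0.18 and 0.21 on MOE430A and between 0.21 and 0.24 on MOE430B. The replicate 1 difference ran from -0.28 (without replicate 2) to 1.76 (without replicate 3) for Chd9 by 1441339_at and from -1.62 (without replicate 3) to 0.45 (without replicate 2) for Chd5, and Hdac8 (0.26 to 1.20) and Sirt6 (0.24 to 0.77) moved by over 1.5 times. These last have no residual degrees of freedom and no test, and without replicate 1 the contrast cannot be made. Chosen after seeing the data, the brightest tested probe set per gene was highest in replicate 3 for 15 of 24 MOE430A and 8 of 15 MOE430B genes, and quantile normalization gave 23 of 35 and 9 of 20 probe sets.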
